A study of Mus musculus with 6 samples.

Results

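Heat shock proteins and chaperones were examined in CD4 T cells of the inflamed mouse colon. The genes were taken by symbol: the Hspa, Hspb, Hspd, Hspe, Hsph and Hsp90 names, the Dnaj names, the cytosolic chaperonin subunits Cct2 to Cct8 and Tcp1, and Bag1 to Bag6, with pseudogene names left out. This gave 91 of the 55335 genes in the count table, of which 73 passed the filter on low counts and 18 did not. The donor cells were splenic naive CD4 T cells of TcfGFP mice, which report activity of Tcf7, and they were transferred into Rag1 KO hosts, which have no T or B cells of their own. The cells recovered from the colon lamina propria were sorted into a GFP-positive gate, labelled TCF7+ and stem-like, and a GFP-negative gate, labelled TCF7- and effector, with 3 libraries each. All 6 libraries therefore come from reporter T cells in colitic hosts, and neither uncolitic animals nor unsorted cells are among them. The labels do not say whether a library is 1 mouse or a pool, nor give age or strain. The p-values therefore rest on the scatter among these 6 libraries, part of which may be technical.

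Chaperones bind unfolded stretches of other proteins and use rounds of ATP binding to help them fold. HSP70 proteins take up clients delivered by J-domain proteins (the DNAJ families), nucleotide exchange factors such as HSP110 and BAG proteins make them let go, and HSP90 finishes the folding of kinases and receptors. Barrel-shaped chaperonins fold actin and tubulin in the cytosol and imported proteins in mitochondria. Heat and misfolded protein release the transcription factor HSF1, which induces the cytosolic genes through heat shock elements, while stress in the endoplasmic reticulum (ER) induces a separate set that includes Hspa5. In T cells, activation and growth raise the demand for folding, and cell isolation is itself known to induce heat shock genes.

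The promoters below are shown because they carry the letters by which these inducible systems are known, and they include genes with higher and with lower values in the comparison that follows. The RefSeq promoter table (build GRCm38.p6, 250 bases before to 50 after each start) held 94 promoters of 74 members. Hsp90ab1, Hspa8, Hsp90aa1 and Hspa9 were among the members absent from it and were not searched. The heat shock element was searched as GAANNTTC or TTCNNGAA (2 units; each reads the same on both strands) and as GAANNTTCNNGAA or TTCNNGAANNTTC (3 units, both strands, overlapping matches allowed). The 2-unit letters occurred in 23 of 94 member promoters (24.5%) and in 15.1% of all 32817 promoters of that length. The promoters of Dnajb1 held none of them. The 3-unit letters occurred in 6 member promoters (6.38%), those of Hspd1, Hspe1, Dnajb6 and Hsph1, against 0.603% of all. These 6 are not separate sites: the promoters of Dnajb6 overlap and hold the same match, as do those of Hsph1. Hspd1 and Hspe1 also share theirs. Overlapping promoters of other genes were likewise counted each. The ER stress element, CCAAT and CCACG with 9 bases between them on either strand, occurred in 3 member promoters (3.19%), those of Hspa5, Hsp90b1 and Dnajc3, against 0.119% of all. A match is a run of letters and was not tested for binding.

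Dnajb4, Dnaja1 and Dnaja4 also had RefSeq promoters without the 2-unit heat shock letters. Their stretches below lie inside the gene as annotated in GENCODE M21, before an inner RefSeq start. The stretches with 2-unit heat shock letters in capitals, read 5′ to 3′ on the gene's strand and ending at or before a RefSeq start, are those of the stress-inducible HSP70 pair (Hspa1a at chr17:34972157-34972306, minus strand, and Hspa1b at chr17:34959239-34959388, minus strand), of the small heat shock gene Hspb1 (chr5:135887769-135887918, plus strand) and of the J-protein genes Dnajb4 (chr3:152193846-152193945, minus strand), Dnaja1 (chr4:40722318-40722467, plus strand) and Dnaja4 (chr9:54699502-54699519, plus strand, 1 of its 2 matches, within an annotated UTR):
Hspa1a: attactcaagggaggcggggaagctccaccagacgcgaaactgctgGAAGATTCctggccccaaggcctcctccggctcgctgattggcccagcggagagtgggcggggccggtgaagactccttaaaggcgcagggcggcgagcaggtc
Hspa1b: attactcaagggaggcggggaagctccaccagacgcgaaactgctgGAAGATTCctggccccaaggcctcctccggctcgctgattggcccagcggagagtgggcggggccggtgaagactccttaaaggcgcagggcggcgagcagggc
Hspb1: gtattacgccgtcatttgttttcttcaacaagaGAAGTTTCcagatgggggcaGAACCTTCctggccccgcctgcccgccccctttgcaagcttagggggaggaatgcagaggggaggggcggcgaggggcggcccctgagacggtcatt
Dnajb4: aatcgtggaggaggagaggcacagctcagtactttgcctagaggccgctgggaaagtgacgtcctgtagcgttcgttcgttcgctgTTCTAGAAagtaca
Dnaja1: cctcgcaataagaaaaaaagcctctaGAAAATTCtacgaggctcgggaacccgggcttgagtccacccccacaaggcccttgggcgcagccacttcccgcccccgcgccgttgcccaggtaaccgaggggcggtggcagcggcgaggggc
Dnaja4: tggcgGAACCTTCcgccg

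The Hspa1a and Hspa1b stretches differ at 1 of 150 bases, and their whole promoters of 300 bases at 4. Hspd1 and Hspe1, which encode the barrel and the lid of the mitochondrial chaperonin, lie head to head and share 1 element, in which both 3-unit matches overlap (capitals, chr1:55088054-55088081, plus strand, overlapping an annotated UTR or coding stretch of Hspd1):
Hspd1-Hspe1: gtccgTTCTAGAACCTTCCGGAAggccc

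The ER stress letters, found once on each strand for Hsp90b1, are in capitals in the promoters of Hspa5, the ER HSP70 (chr2:34772020-34772048, plus strand, overlapping an annotated UTR or coding stretch of Hspa5), of Dnajc3, an ER-lumen J protein (chr14:118937782-118937931, plus strand), and of Hsp90b1, the ER HSP90 (chr10:86705510-86705674, minus strand):
Hspa5: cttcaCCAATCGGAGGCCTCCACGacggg
Dnajc3: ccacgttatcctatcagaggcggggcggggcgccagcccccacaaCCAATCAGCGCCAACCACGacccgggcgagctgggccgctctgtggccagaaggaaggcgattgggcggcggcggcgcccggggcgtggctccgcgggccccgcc
Hsp90b1: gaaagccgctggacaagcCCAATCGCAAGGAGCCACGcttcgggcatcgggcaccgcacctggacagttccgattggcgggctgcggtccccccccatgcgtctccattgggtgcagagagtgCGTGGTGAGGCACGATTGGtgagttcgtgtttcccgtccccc

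The libraries held 4309500 to 7462076 counts. Tcf7, the gene of the reporter, stood at 71.3 to 140.5 CPM (counts scaled to a common library total over the tested genes) in GFP-negative and at 140.8 to 237 CPM in GFP-positive libraries. The T cell genes Cd3e and Cd4 were at 622 to 796 and 510.0 to 695 CPM in all 6 libraries. The 8 CD4 T cell markers together held less of GFP-positive replicate 3, 0.5346% of its counts against 0.6615% to 0.747% in the other 5. GFP-positive replicate 3 stood apart: myeloid markers held 0.677% of its counts against 0.0124% to 0.0187% in the other 5, antigen-presenting cell markers 0.660% against 0.0187% to 0.0473%, natural killer and innate lymphoid markers 0.0761% against 0.00297% to 0.0126%, stromal and endothelial markers 0.039% against 0.00424% to 0.00845%, and epithelial markers 0.0325% against 0.0023% to 0.00564%. In that library Lyz2, a myeloid gene, stood at 4217 CPM against 65.8 to 100.4 CPM in the others, and Dcn, a stromal gene, at 222 CPM against at most 6.40 CPM, while the endothelial genes Cdh5 and Vwf were at 0 in all 6. The part of this library's other transcripts in the chaperone values was not tested.

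Chaperone transcripts were abundant in both gates. The 91 genes together held 2.78% ± 0.399 of all counts in GFP-negative and 3.08% ± 0.586 in GFP-positive libraries (SD, n = 3 each). On the TPM scale, which is per length, their sum was 25907, 22748 and 18998 in the GFP-negative libraries, listed here and below by replicate number, and 29463, 25399 and 19294 in the GFP-positive ones. The groups overlapped, and in each gate the highest library exceeded the lowest by more than the group means differed. In bulk samples, fewer cells with a transcript and less of it per cell cannot be told apart.

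**Figure D1:**
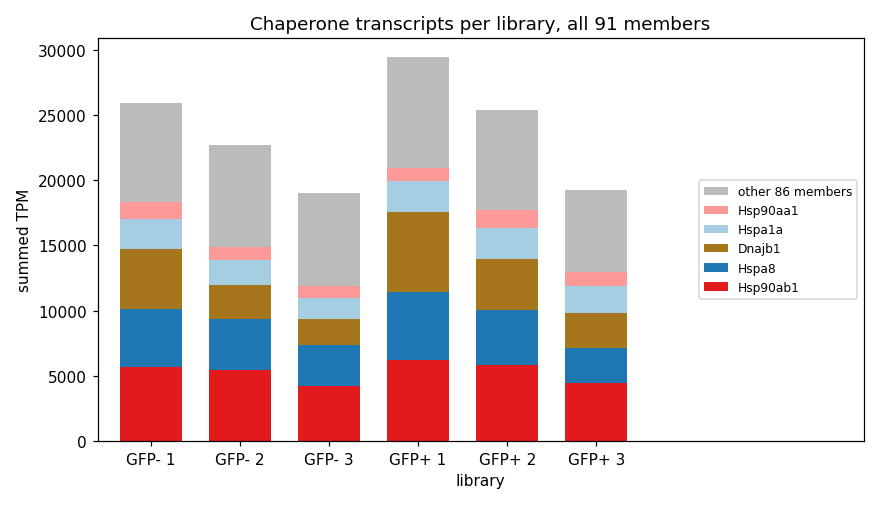
Summed TPM of all 91 chaperone genes (y axis) in each library (x axis; GFP- for GFP-negative, GFP+ for GFP-positive), split into the 5 most abundant genes and the rest. Sums ran from 18998 to 29463 TPM, and Dnajb1 was the segment that varied most, from 10.8% to 20.9% of the sum.

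A few genes made up most of this sum. Hsp90ab1, the constitutive cytosolic HSP90, had the highest mean level (5309 TPM), followed by Hspa8, the constitutive HSP70 (3931 TPM), Dnajb1, a J protein induced by HSF1 (3667 TPM), Hspa1a (2108 TPM) and Hsp90aa1, the inducible HSP90 (1112 TPM). These 5 genes held 68.2% of the mean member TPM and the first 10 held 79.8%. Next were Hspe1 (815 TPM), Hspa5 (800.2 TPM), Hspd1 (416 TPM), the J-protein gene Dnaja1 (394 TPM) and Bag1 (308 TPM). At the low end of the tested genes stood Dnajb14, an ER-membrane J protein, at 1.99 TPM and Dnajc6, which encodes auxilin of clathrin uncoating, at 1.87 TPM.

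**Figure D2:**
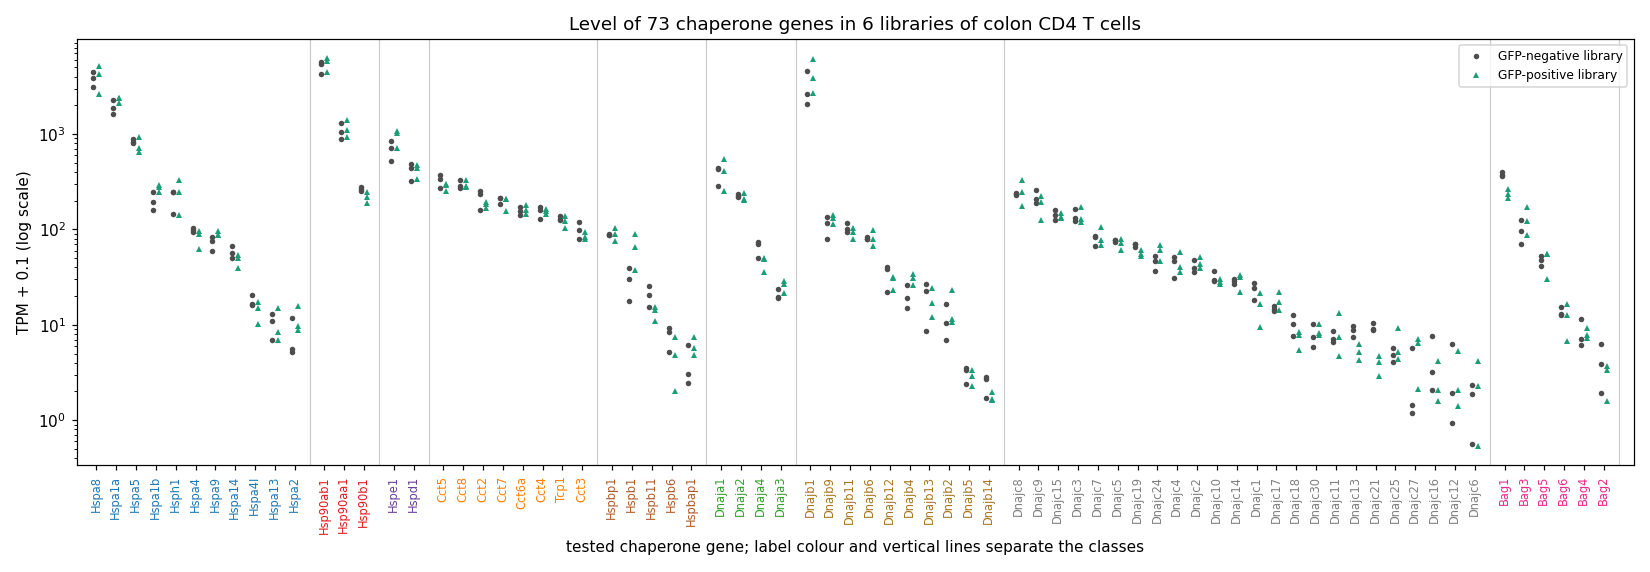
Level of each of the 73 tested chaperone genes in TPM + 0.1 (y axis, log scale), with circles for the 3 GFP-negative and triangles for the 3 GFP-positive libraries; genes are ordered by class and mean level. Mean levels ran from 1.87 TPM for Dnajc6 to 5309 TPM for Hsp90ab1, and those of the cytosolic chaperonin subunits from 92.6 to 306 TPM.

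The comparison asked how the folding machinery of colon T cells differed by activity of the Tcf7 reporter. By edgeR's quasi-likelihood test, with Benjamini-Hochberg adjustment over 11074 genes, none of the 73 tested members passed an adjusted p of 0.05, where 0.108% of all tested genes did. At an unadjusted p under 0.05 there were 9 members (12.3%), against 10.3% of all tested genes. Of these 9, 5 had higher values in GFP-positive cells (Hspa1b, Dnajb4, Hspb1, Hspe1 and Hspa9; 4.31% of all tested genes did) and 4 lower (Bag1, Dnajc21, Dnajc13 and Dnaja4; 5.97% of all). Bag1 was the 1 member called with DESeq2, which called 1.81% of all genes, and with edgeR and no expression filter, which called 1.78%. Limma-voom called 0 members and 0.163% of all genes. CPM values did not overlap between the gates for 10 members (13.7%), where 16.0% of all tested genes did not, and 5 of the 10 were higher, against 7.25% of all tested genes, and 5 lower, against 8.80%. The shares of members thus lay near those of all tested genes. The median log2 fold change, GFP-positive minus GFP-negative, was 0.05 over the 73 members and 0.02 over all tested genes, and the median size of the change, without its sign, was 0.21 and 0.27.

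A missed threshold does not show equal levels, so the intervals are given as well. For 49 of 73 members (67.1%) the 95% interval of the fold change lay within a 2-fold change in either direction, against 51.5% of all tested genes. The interval covers 1 gene at a time and is not adjusted over the members. Members with low counts, such as Dnajc6 (-1.22 to 2.62) and Bag2 (-2.07 to 1.22), had wide intervals. The shares of members and of all tested genes were not matched for level. All 8 tested subunits of the cytosolic chaperonin and all 3 HSP90 genes were among the 49, and so were 10 of 11 HSP70 and HSP110 genes, but only 1 of 5 genes with HSPB names.

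Bag1 had the smallest p of all members. It encodes a nucleotide exchange factor of HSP70 that also binds BCL2. Its level was 171, 182 and 174 CPM in GFP-negative and 119, 112 and 111 CPM in GFP-positive libraries. The gates were well separated, with little spread inside each. The means were 176 ± 5.57 and 114 ± 4.35 CPM (SD, n = 3 each), a log2 fold change of -0.62 ± 0.14 (SE; 95% interval -0.91 to -0.33). The edgeR adjusted p was 0.118, so Bag1 was not called there. The adjusted p was 0.0139 with DESeq2 and 0.0266 in edgeR without the expression filter. It was 0.139 with limma-voom and 0.498 in edgeR once GFP-negative replicate 2 was left out. Without GFP-positive replicate 3 the log2 fold change was -0.60. Bag1 lies on chromosome 4 at 40936398 to 40948294 (GENCODE M21, mm10), and no exon of another gene overlaps its exons.

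The gates overlapped for each of the other 5 BAG genes. Bag3, which is induced by HSF1 and links HSP70 to autophagy, stood at 111, 60.7 and 86.2 CPM in GFP-negative and 146, 79.8 and 123 CPM in GFP-positive libraries. Its log2 fold change was 0.44 ± 0.26 (edgeR adjusted p = 0.628), and 0.23 to 0.66 with any 1 library left out, the lowest once GFP-negative replicate 2 was removed and the highest once replicate 1 of that gate was. Bag4, Bag5 and Bag6 had log2 fold changes of 0.02, 0.03 and -0.14. Bag2, an inhibitor of client ubiquitination by the CHIP ligase, was near the lower end, at 1.61 to 6.58 CPM over the 6 libraries.

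**Figure D3:**
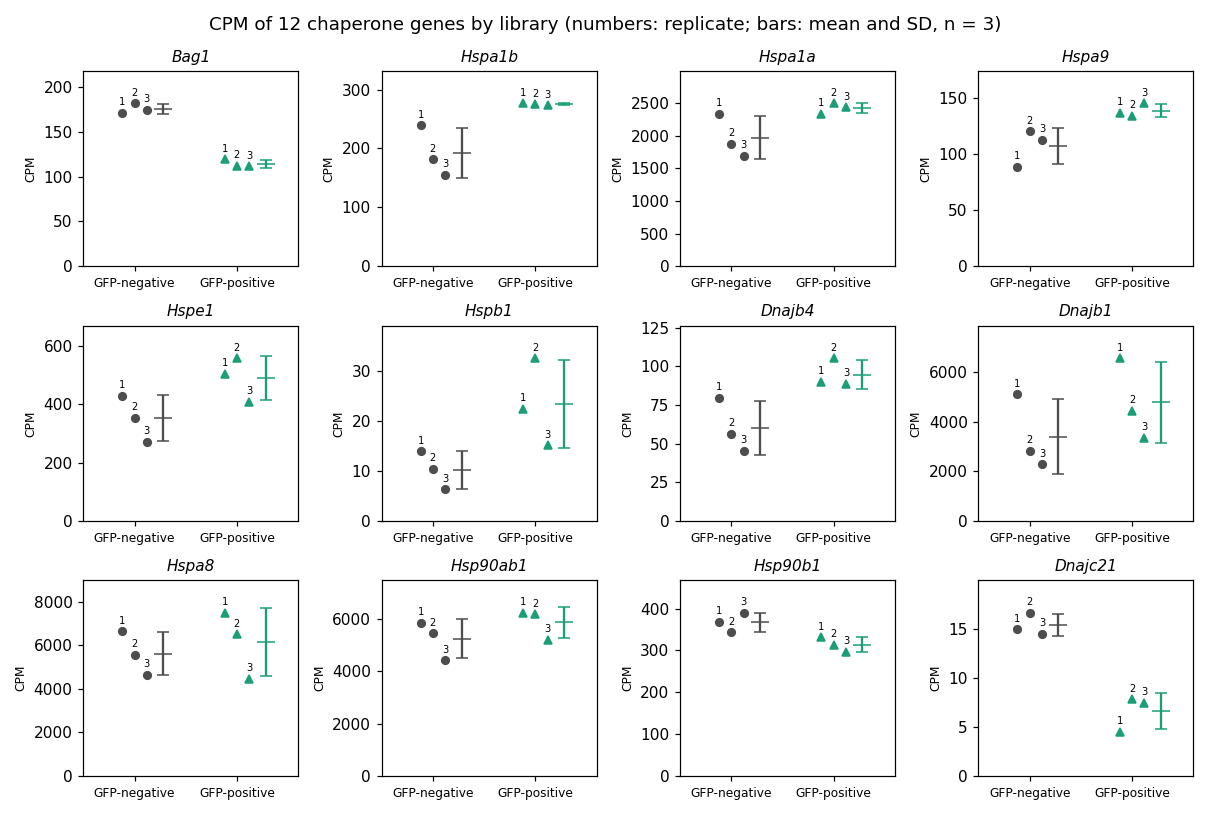
CPM (y axes, from 0) of 12 chaperone genes in each library, with the replicate number above each point and the mean and SD of each gate (n = 3) beside it. Bag1, Hsp90b1 and Dnajc21 were lower in every GFP-positive library, Hspa1b, Hspa9, Hspb1 and Dnajb4 higher, and the other 5 genes overlapped.

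Among the HSP70 genes, Hspa1b was measured at 239, 181 and 156 CPM in GFP-negative and at 277, 275 and 273 CPM in GFP-positive libraries. The GFP-positive libraries lay close together, and the GFP-negative ones were spread below them. The log2 fold change was 0.52 ± 0.16 (95% interval 0.16 to 0.87; edgeR adjusted p = 0.272). Its neighbour Hspa1a had 2340, 1880 and 1694 CPM in GFP-negative and 2339, 2499 and 2439 CPM in GFP-positive libraries. GFP-negative replicate 1 and GFP-positive replicate 1 overlapped narrowly, and the log2 fold change was 0.30 ± 0.16 (edgeR adjusted p = 0.567). These near-identical genes share reads: of the 100-base windows of their transcripts, 56.5% for Hspa1a and 49.9% for Hspa1b occur in another gene, so their split is uncertain. Summed, the pair stood at 2163 ± 376 CPM in GFP-negative and 2701 ± 79.7 CPM in GFP-positive libraries.

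Hspa9, the mitochondrial HSP70 mortalin, did not overlap between the gates, with 88.8, 120.3 and 113 CPM against 137, 134 and 145 CPM. Its log2 fold change was 0.37 ± 0.16 (edgeR adjusted p = 0.446). Hspa8 was at 6650, 5574 and 4656 CPM in GFP-negative and at 7496, 6517 and 4454 CPM in GFP-positive libraries. The lowest library of all was a GFP-positive one, and the log2 fold change of 0.13 ± 0.21 had a 95% interval of -0.32 to 0.58. For Hspa8, 28.5% of the 100-base windows occur in another gene. Hspa5, also known as BiP, was steady, at 1195 to 1253 CPM in GFP-negative and 1066 to 1302 CPM in GFP-positive libraries (log2 fold change -0.08 ± 0.14). The HSP110 gene Hsph1 ranged from 367 to 628 CPM and from 405 to 792 CPM, and its log2 fold change was 0.20 ± 0.27. Hspa4 and Hspa4l, HSP110 relatives, and Hspa14, a ribosome-associated HSP70, had log2 fold changes of -0.21, -0.27 and -0.23, and Hspa13, an ER-associated member, one of 0.04.

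Hsp90ab1 had 5259 ± 743 CPM in GFP-negative and 5882 ± 584 CPM in GFP-positive libraries, and Hsp90aa1 1458 ± 292 and 1619 ± 358 CPM (SD, n = 3 each). Their log2 fold changes were 0.16 ± 0.17 and 0.15 ± 0.19, and their groups overlapped. Of the 100-base windows, 38% for Hsp90aa1 and 0% for Hsp90ab1 occur in another gene, so the level of Hsp90aa1 is less certain. Hsp90b1 (GRP94), which folds integrins and Toll-like receptors in the ER, stood at 369, 343 and 389 CPM against 331, 313 and 296 CPM. Every GFP-positive library was below every GFP-negative one, by a small margin, and the log2 fold change was -0.23 ± 0.13 (edgeR adjusted p = 0.624).

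Of the mitochondrial chaperonin pair, Hspe1, the lid, was at 430.0, 354 and 271 CPM in GFP-negative and at 505, 558 and 409 CPM in GFP-positive libraries. One GFP-negative library exceeded the lowest GFP-positive one. The log2 fold change was 0.48 ± 0.18 (95% interval 0.09 to 0.88; edgeR adjusted p = 0.38). Hspd1, the barrel, had 375 ± 68.0 and 392 ± 40.8 CPM and a log2 fold change of 0.06 ± 0.16. The library kit keeps no strand, and exons of this head-to-head pair overlap in the annotation, so reads there cannot be assigned to either. For Hspd1 23.9% and for Hspe1 11% of the 100-base windows occur in another gene.

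The cytosolic chaperonin (TRiC or CCT), a ring of 8 different subunits, had the smallest median size of change of all classes, 0.10 on the log2 scale without sign. Log2 fold changes ran from -0.18 for Cct2 and -0.16 for Cct3 through -0.15 for Cct5, -0.04 for Tcp1, -0.03 for Cct7, 0.08 for Cct4 and 0.09 for Cct8 to 0.10 for Cct6a. The smallest edgeR adjusted p of the class was 0.795, and each interval lay within a 1.5-fold change either way. Mean levels differed more between subunits than between gates: Cct5 was at 306 TPM, Cct8 at 297, Cct2 at 199, Cct7 at 198, Cct6a at 160, Cct4 at 155, Tcp1 at 127 and Cct3 at 92.6 TPM. The highest subunit exceeded the lowest 3.11 to 3.66 times in each library. Cct6b, a subunit variant known from testis, had 40 counts over the 6 libraries and Cct8l1 had 0, and neither was tested.

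Small heat shock proteins, which hold unfolded clients without ATP, were low or at 0. Hspb1 was the exception and had 14.0, 10.5 and 6.36 CPM in GFP-negative and 22.5, 32.6 and 15.2 CPM in GFP-positive libraries. The gates did not overlap, although the highest GFP-negative and lowest GFP-positive libraries lay close together. Hspb1 had the highest log2 fold change of the tested members, 1.18 ± 0.41 (95% interval 0.30 to 2.07; edgeR adjusted p = 0.327), and it was 0.88 or 1.43 once GFP-positive replicate 2 or 3 was left out. Of its 100-base windows 44.0% occur in another gene, the pseudogene Hsp25-ps1 among them. Hspb6 stood at 1.72 to 7.46 CPM, and Hspb11, a part of intraflagellar transport despite its name, had a log2 fold change of -0.53 ± 0.40. Hspbp1, an exchange factor of HSP70, and Hspbap1, a partner of Hspb1, had log2 fold changes of 0.09 ± 0.21 and 0.69 ± 0.41. The latter was 0.43 once GFP-negative replicate 2 was left out and 1.21 once GFP-negative replicate 3 was.

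J proteins formed the largest family. Dnajb1 had 5104, 2820 and 2289 CPM in GFP-negative and 6567, 4432 and 3359 CPM in GFP-positive libraries. Its libraries spread widely inside each gate and overlapped between them, so that a log2 fold change of 0.49 ± 0.35 had a 95% interval of -0.34 to 1.32 (edgeR adjusted p = 0.717). Single libraries moved that value: it was 0.90 once GFP-negative replicate 1 was left out, and 0.19 or 0.70 once GFP-positive replicate 1 or 3 was. Each GFP-positive library exceeded the GFP-negative one of the same number. With the replicate number added to the fit as a block, the log2 fold change was 0.52 (edgeR adjusted p = 0.0931). The labels do not say that the numbers pair libraries, so this value for Dnajb1 rests on an unsettled pairing. Dnajb4, a relative that is also stress-induced, had 79.5, 56.2 and 45.2 CPM against 90.1, 105 and 88.6 CPM. All GFP-positive libraries were above the GFP-negative ones, and the log2 fold change was 0.65 ± 0.22 (95% interval 0.18 to 1.12; edgeR adjusted p = 0.302). Dnajb6, which keeps aggregation-prone proteins soluble, had a log2 fold change of 0.07, and the ER-lumen members Dnajb9 and Dnajb11 had 0.28 and -0.12.

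Of the DNAJA genes, Dnaja1 ranged from 852 to 1323 CPM and from 845 to 1592 CPM, with a log2 fold change of 0.12 ± 0.23, and Dnaja2 was nearly constant at 215 to 240.1 CPM over the 6 libraries. Dnaja4 had 92.1, 84.8 and 62.7 CPM in GFP-negative and 58.7, 64.6 and 50.1 CPM in GFP-positive libraries. The gates overlapped by a small amount, and the log2 fold change was -0.47 ± 0.20 (edgeR adjusted p = 0.46). Exons of Dnaja4 overlap exons of Wdr61 on the other strand, and 41.5% of its windows are shared, so these counts may include reads of Wdr61. Dnaja3, a mitochondrial J protein, had a log2 fold change of 0.38 ± 0.26.

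The DNAJC genes, which tie HSP70 to particular places and tasks, included the lowest fold change of all tested members. Dnajc21, a J protein of ribosome maturation, had 14.9, 16.6 and 14.5 CPM in GFP-negative and 4.50, 7.82 and 7.46 CPM in GFP-positive libraries. Every GFP-positive library was well below the others, but counts were low and the log2 fold change of -1.22 ± 0.42 had a 95% interval of -2.13 to -0.30 (edgeR adjusted p = 0.327). Dnajc13, which acts in endosomal sorting, had 36.4, 29.1 and 39.7 CPM against 16.8, 21.4 and 28.7 CPM (log2 fold change -0.65 ± 0.28, edgeR adjusted p = 0.454). Its highest GFP-positive library, replicate 3, was just below the lowest GFP-negative one. Dnajc1, an ER-membrane member, and Dnajc24, a J protein of diphthamide synthesis, had -0.53 ± 0.25 and 0.42 ± 0.28. Dnajc3 and Dnajc7, a cytosolic co-chaperone of HSP70 and HSP90, had 0.05 and 0.15. Dnajc9, a histone chaperone linked to replication, stood at 150 to 216 CPM in GFP-negative and 115 to 179 CPM in GFP-positive libraries, and Dnajc19 of the mitochondrial import motor at 94.6 ± 3.54 and 81.1 ± 5.87 CPM without overlap (log2 fold change -0.22 ± 0.16). Exons of Dnajc1, Dnajc13, Dnajc19, Dnajc24 and Hsp90b1 overlap exons on the other strand, and without strand such reads cannot be told apart. Across the family, 15 of 24 tested DNAJC genes, 5 of 10 DNAJB genes and 3 of 4 DNAJA genes had a positive log2 fold change.

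**Figure D4:**
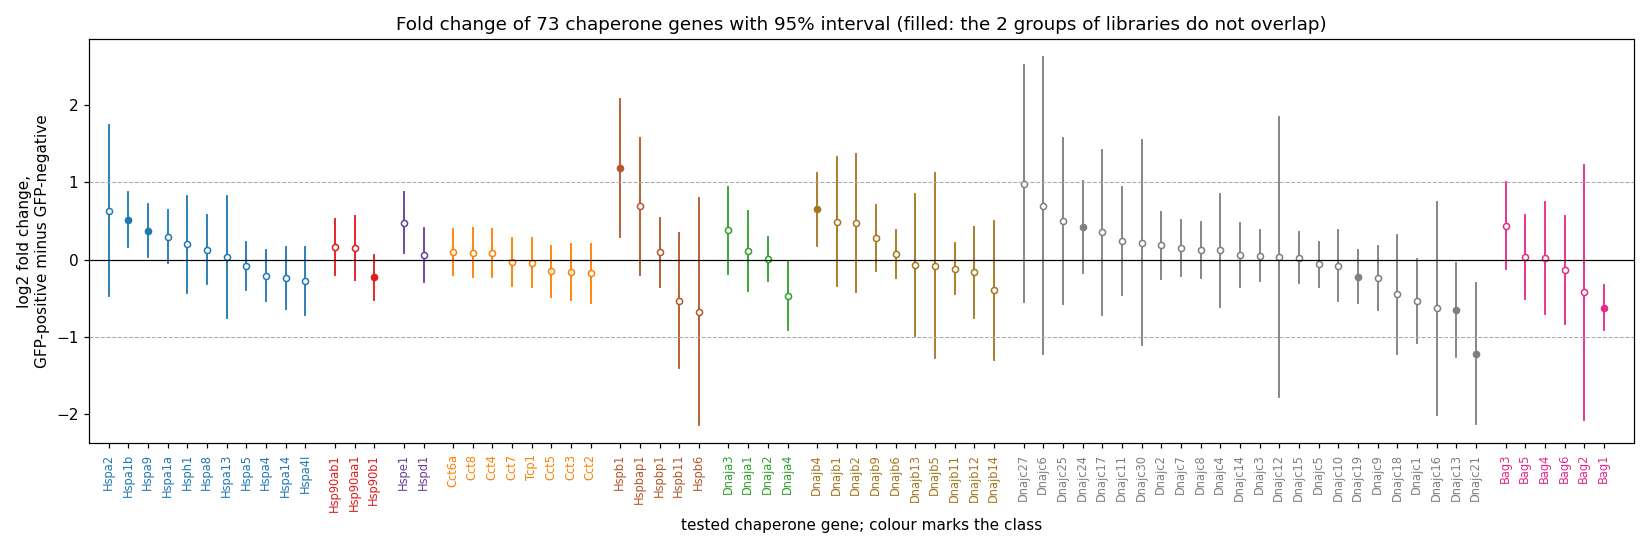
Log2 fold change, GFP-positive minus GFP-negative (y axis), of each of the 73 tested chaperone genes with its 95% interval (vertical line), ordered by class; filled points mark genes whose 3 libraries per gate do not overlap and dashed lines a 2-fold change. Points sit on both sides of 0 in every class but the mitochondrial chaperonin, and 49 intervals stay inside the dashed lines.

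The 18 members that were not tested were at or near 0. Of these, 8 had no count in any library, among them the J-protein genes Dnajb7 and Dnajb8 known from testis and the muscle genes Hspb2, Hspb3 and Hspb7, and a count of 0 allows up to 0.43 to 0.69 CPM per library for counting error alone. Of the other 10, Hspb8 had 31 counts in GFP-positive replicate 3, 10 in GFP-negative replicate 1 and 0 elsewhere, and Dnajc22 had 19 of its 26 counts in GFP-positive replicate 3. Dnajc28 had 14 counts, all in GFP-positive libraries. Hspa1l, Hspa12a, Hspa12b, Dnajb3 and Hspb9 had 1 to 6 counts in all.

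Partners of these chaperones were described in the same way. In a list of 29 co-chaperones and heat shock factors, 25 were tested, 13 had a positive and 12 a negative log2 fold change (median 0.00), and 0 passed edgeR's adjusted p over all genes, with 3 (12%) at an unadjusted p under 0.05 where 10.3% of all tested genes were. Hsf1, the heat shock factor, had 67.3, 76.2 and 58.5 CPM in GFP-negative and 122, 77.7 and 83.3 CPM in GFP-positive libraries, apart by a narrow margin (log2 fold change 0.49; edgeR adjusted p = 0.444). Stub1, the CHIP ubiquitin ligase, stood at 31.4, 25.2 and 24.8 CPM against 40.7, 39.8 and 36.9 CPM without overlap (log2 fold change 0.53; edgeR adjusted p = 0.473). Prefoldin and other chaperonin partners had 5 positive and 9 negative values among 14 tested (median -0.12), and none reached an unadjusted p under 0.05.

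In the list of ER stress and folding genes, 10 of 29 tested had a positive and 19 a negative log2 fold change (median -0.12), with 0 called by edgeR and 3 (10.3%, as over all tested genes) at an unadjusted p under 0.05. Positive values made up 34.5% of the list and 51.6% of all tested genes. Pdia6, a disulfide isomerase, was at 181, 201 and 210 CPM against 167, 135 and 157 CPM (log2 fold change -0.37; edgeR adjusted p = 0.398), and Edem1, which sends misfolded glycoproteins to degradation, had -0.32 (edgeR adjusted p = 0.442). Ppp1r15a (GADD34), which ends the block of translation under stress, had 0.42 (edgeR adjusted p = 0.382). Genes of mitochondrial import and proteostasis had 7 positive and 12 negative values among 19 (median -0.05), with 0 called and 0 at an unadjusted p under 0.05. Once GFP-positive replicate 3 was left out, 5 co-chaperones (20%), 5 ER genes (17.2%) and 2 mitochondrial genes (10.5%) had an unadjusted p under 0.05, beside 12.2% of all genes then tested, and 0 genes of these lists were called. Each of these 3 shares was the highest reached with any 1 library left out. Without GFP-negative replicate 3 there were 0 co-chaperones, 1 ER gene (3.45%) and 0 mitochondrial genes, beside 7.13% of all genes then tested.

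Immediate early genes that are induced when tissue is dissociated were listed because heat shock genes can rise with them during cell isolation. Of 26 tested, 19 had a positive and 7 a negative value, and their median log2 fold change was 0.31 beside 0.02 over all tested genes. EdgeR called 0 of them, and 6 (23.1%) had an unadjusted p under 0.05 where 10.3% of all tested genes did. Of these 6, 4 were higher in GFP-positive cells and 2 lower, Ier5 (log2 fold change -0.51) and Dusp2 (-0.50). Positive values made up 73.1% of the list and 51.6% of all tested genes. The library with myeloid transcripts, GFP-positive replicate 3, stood apart in several of these genes: Ier3 was at 313 CPM there against 14.7 to 39.0 CPM in the other 5, Zfp36 at 1088 against 407 to 549 CPM and Atf3 at 73.9 against 6.36 to 26.7 CPM. Without that library 17 values were positive and 9 negative, with a median of 0.13, and 7 (26.9%) had an unadjusted p under 0.05 where 12.2% of all genes then tested did. The median was also 0.13 once GFP-negative replicate 3 was left out, and 0.48 once replicate 1 of that gate was. Leaving out GFP-positive replicate 1 gave a median of 0.23. In that edgeR fit 2 genes (7.69%) had an unadjusted p under 0.05, below the 9.6% of all genes then tested. Klf4 had 1.74, 1.59 and 1.75 CPM in GFP-negative and 4.50, 5.98 and 15.9 CPM in GFP-positive libraries, the last again in replicate 3 (log2 fold change 2.36; edgeR adjusted p = 0.234). Without that library it had 1.62 (edgeR adjusted p = 0.494). The AP-1 gene Fosl2 had 0.68 (edgeR adjusted p = 0.374). The part of handling in the chaperone values was not tested.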

How the data were processed

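Counts per gene and TPM were deposited by the authors for 6 libraries, and all value columns were matched to samples by their descriptions. The submitters' processing notes name mm10 as the build and list deepTools 3.5.1, SAMtools 1.17, STAR 2.7.10b and fastp 0.23.3, while the read counter, its annotation and strand setting were not given in the sources used here. Per the labels' protocols, amplified cDNA was cut and tagged by a Nextera transposase, which keeps no strand and no molecular identifiers, so intervals on counts cover counting error only. The deposited TPM values, scaled per length and to a fixed total, were used to compare levels between genes.

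The deposited counts were tested with edgeR 4.0.16 in R 4.3.3 (quasi-likelihood F-test, robust dispersions, TMM, default filter by group with a count minimum of 10, group as the only term), with Benjamini-Hochberg adjustment over 11074 genes and a threshold of 0.05. CPM used TMM-scaled totals over tested genes, the SE was derived from the log2 fold change and F, and 95% intervals used the test's degrees of freedom. The edgeR step was tested on simulated data. DESeq2 1.42.0 and limma 3.58.1 were alternatives, and leaving out libraries for the pathway lists was added after the values were seen. Coordinates are those of GENCODE M21, where 90 of 91 members matched with their version and all matched without it. Shared windows were counted in M21 transcripts, and 15 of 73 tested members shared at least 10% of them with another gene. Named genes were a fixed panel, the 4 smallest p per class, the 10 highest mean TPM and the 3 smallest p per pathway list; other genes are named after their values were seen. A few genes that fall under this rule are not reported here. The members, lists and rule were chosen with earlier results of these data known. No pair of replicates was a duplicate (smallest chi-square per degree of freedom 10.7).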

Additional observations from a re-analysis of the deposited data

How the results depend on the processing

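Alternatives moved the count of genes called, 12 of 11074 by edgeR, more than the members. It was 19 with library size alone, 373 with no filter, 200 with DESeq2, and 1, 0 and 1 with limma on log2(TPM + 1), on log2(TPM + 0.1) and on log2(TPM + 1) with no filter; leaving out GFP-negative replicates 1, 2 and 3 in turn gave 1, 3 and 0, and GFP-positive replicates 1, 2 and 3 gave 0, 0 and 42. No member was called in these, except that 1 was, Bag1, with no filter and with DESeq2. The members' median log2 fold change moved by less than 1 SD between replicates (0.122) in all 16 alternatives, but without GFP-positive replicate 1 it changed sign, from 0.05 to -0.04, and the positive values fell from 43 to 32 of 73. With the replicate block edgeR called 81 genes and 0 members (Bag1 adjusted p = 0.0684). Correlations between libraries were taken on log2 CPM after each gate's mean was subtracted. Over all tested genes, same-numbered libraries correlated at 0.104, 0.097 and 0.104, and each library correlated best with its own number. Over the tested members the same-numbered values were -0.242, 0.074 and 0.164. The highest was 0.472, for GFP-negative replicate 2 with GFP-positive replicate 1. The numbers were therefore not taken as pairs.

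Several named members changed sign, Bag2 (-0.42), Hsph1 (0.20) and Cct3 (-0.16) among them, and the cause was not tested. Hspa13 was -0.06 with limma-voom, 0 with the replicate block and -0.04, -0.05 and -0.04 in the TPM fits; Bag5 was -0.03 with limma-voom and -0.05, -0.06 and -0.05 there; Dnaja2 was -0.01 with library size alone and -0.06 in each TPM fit; Dnajc3 was -0.01 in each. With 1 library left out, log2 fold changes ran over -0.77 to 0.08 for Bag2, -0.14 to 0.36 for Bag4, -0.1 to 0.25 for Bag5, -0.36 to 0.15 for Bag6, -0.3 to 0.02 for Cct3, -0.03 to 0.15 for Cct4, -0.1 to 0.05 for Cct7, -0.12 to 0.33 for Dnaja1, -0.02 to 0.06 for Dnaja2, -0.03 to 0.15 for Dnajb6, -0.06 to 0.16 for Dnajc3, 0 to 0.32 for Hsp90aa1, -0.34 to 0.27 for Hspa13, -0.04 to 0.32 for Hspa8, -0.07 to 0.16 for Hspd1, -0.04 to 0.43 for Hsph1 and -0.1 to 0.07 for Tcp1. Low counts and 3 libraries a gate limit what can be seen of genes such as the small heat shock proteins.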

Other observations

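Partner chaperones were also compared as ratios of their TPM within a library, chosen after their values were seen and given without a test. How many other gene pairs would not overlap was not computed. Hspe1 exceeded Hspd1 by 1.68 ± 0.23 times in GFP-negative and 2.24 ± 0.165 times in GFP-positive libraries (SD, n = 3 each), and the gates did not overlap. Exons of Hspe1 and Hspd1 overlap, and reads there cannot be assigned to either. Of their 100-base windows, 23.9% for Hspd1 and 11% for Hspe1 occur in another gene, so this ratio is uncertain. Bag1 exceeded Bag3 by 4.15 ± 1.41 times in GFP-negative and 1.98 ± 0.602 times in GFP-positive libraries, again without overlap. Hspa1a exceeded Hspa1b by 9.78 ± 0.530 and 8.34 ± 0.308 times without overlap, on counts whose split between this pair is uncertain. Hsp90ab1 exceeded Hsp90aa1 by 4.77 ± 0.466 and 4.96 ± 1.44 times, with overlap, the highest ratio of 6.62 being that of GFP-positive replicate 1. This ratio rests on Hsp90aa1 counts of which the shared windows make the level uncertain. The gates also overlapped for Hspa8 over Hspa1a (1.97 ± 0.0749 and 1.76 ± 0.477) and for Dnajb1 over Dnaja1 (7.94 ± 2.18 and 10.46 ± 0.806).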
